A study of Homo sapiens with 24 samples.

Results

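The heat shock and small HSP genes described here are 10 genes taken by name from a table of PRO-seq counts over 60605 genes. They are *HSPB8* and *HSPB1* (small heat shock proteins), *BAG3* (the co-chaperone that binds *HSPB8* and HSP70), *HSPA1A* and *HSPA1B* (inducible HSP70), *HSPA8* (constitutive HSP70), *DNAJB1* (an HSP40), *HSPH1* (an HSP110 exchange factor), *HSP90AA1* (the inducible cytosolic HSP90) and *HSF1* (the transcription factor of the heat shock response). *HSPB8* was selected on its higher level with dTAG-13 in these same libraries, so its difference between dTAG-13 and DMSO is a description with no test, and only how that difference varied between clones and between replicate numbers was tested. All 10 genes passed the filter on low counts that left 22326 genes. PRO-seq (precision run-on sequencing) counts the reads of nascent RNA in each gene and so measures ongoing transcription. It was done in Clones 28, 35 and 39 of T47D, a luminal breast cancer cell line. All 6 groups carried the dTAG degron on the endogenous TRPS1 protein, a GATA-family repressor, and each line was grown from 1 clone. Cultures of each clone received 0.1% DMSO or 100 nM dTAG-13, a small molecule that brings the tagged protein to an E3 ubiquitin ligase, for 90 minutes. Each of the 6 groups had 4 replicates, which made 24 libraries. Each replicate was its own round of dosing and harvest within 1 day, both treatments of a round being harvested together, and the labels do not say whether a replicate number was the same time in all 3 clones.

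Cells answer heat and misfolded protein by freeing HSF1 from chaperones. HSF1 then forms trimers and binds heat shock elements, which are inverted repeats of GAA and TTC units, in the promoters of HSP70, HSP90, HSP40, HSP110 and small HSP genes. The chaperones refold or hold the unfolded proteins, and HSPB8 with BAG3 and HSP70 passes damaged proteins to autophagy. A rise of *HSPA1A*, *HSPA1B*, *DNAJB1* and *HSPH1* together is the usual transcriptional sign of that response, whereas *HSPB8* in breast cancer cells is also known as an estrogen-responsive gene.

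The promoters of 7 members are shown so that the matches to the heat shock element can be set beside the values of the genes. They are the 250 bases before the RefSeq start in GRCh38.p14, 5′ to 3′ on the strand of the gene, with the GAA and TTC units of each heat shock element in capitals. An element was searched on both strands as the inward pair GAANNTTC, the outward pair TTCNNGAA and the 3 units GAANNTTCNNGAA or TTCNNGAANNTTC, which contain both pairs. *HSPB8* lies at chr12:119178681-119178930 on the plus strand, *HSPA1A* at chr6:31815293-31815542 and *HSPA1B* at chr6:31827488-31827737, both plus, *HSPB1* at chr7:76302423-76302672, plus, *HSPA8* at chr11:123062137-123062386, minus, and the start of *DNAJB1* and of *HSP90AA1* that has a match at chr19:14518398-14518647 and chr14:102087045-102087294, both minus.
HSPB8: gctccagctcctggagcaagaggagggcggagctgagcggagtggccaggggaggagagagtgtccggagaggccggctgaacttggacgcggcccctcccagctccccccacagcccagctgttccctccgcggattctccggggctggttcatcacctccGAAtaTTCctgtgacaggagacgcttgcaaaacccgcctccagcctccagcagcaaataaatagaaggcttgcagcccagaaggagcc
HSPA1A: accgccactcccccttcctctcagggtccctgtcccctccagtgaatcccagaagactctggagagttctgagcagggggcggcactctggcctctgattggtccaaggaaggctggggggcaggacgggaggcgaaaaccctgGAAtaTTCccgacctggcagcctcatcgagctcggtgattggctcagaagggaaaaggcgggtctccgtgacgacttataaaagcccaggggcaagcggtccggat
HSPA1B: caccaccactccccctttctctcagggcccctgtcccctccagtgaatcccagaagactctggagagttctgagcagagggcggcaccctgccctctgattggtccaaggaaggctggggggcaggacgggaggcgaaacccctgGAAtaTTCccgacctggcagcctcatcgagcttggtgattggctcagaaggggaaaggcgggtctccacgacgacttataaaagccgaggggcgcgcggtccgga
HSPB1: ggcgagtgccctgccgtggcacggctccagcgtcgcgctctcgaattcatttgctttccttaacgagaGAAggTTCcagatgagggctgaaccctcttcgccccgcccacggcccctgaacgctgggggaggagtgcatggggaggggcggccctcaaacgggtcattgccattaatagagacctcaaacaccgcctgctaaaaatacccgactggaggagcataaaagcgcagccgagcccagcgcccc
HSPA8: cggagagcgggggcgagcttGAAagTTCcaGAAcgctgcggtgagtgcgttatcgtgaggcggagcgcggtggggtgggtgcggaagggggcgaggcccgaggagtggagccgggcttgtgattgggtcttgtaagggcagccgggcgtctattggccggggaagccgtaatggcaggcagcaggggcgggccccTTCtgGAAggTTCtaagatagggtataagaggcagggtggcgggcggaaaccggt
DNAJB1: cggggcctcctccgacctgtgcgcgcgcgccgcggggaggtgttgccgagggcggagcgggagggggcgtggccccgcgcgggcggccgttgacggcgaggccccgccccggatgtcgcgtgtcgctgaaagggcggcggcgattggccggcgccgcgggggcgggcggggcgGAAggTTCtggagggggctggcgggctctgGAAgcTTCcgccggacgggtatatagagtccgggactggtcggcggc
HSP90AA1: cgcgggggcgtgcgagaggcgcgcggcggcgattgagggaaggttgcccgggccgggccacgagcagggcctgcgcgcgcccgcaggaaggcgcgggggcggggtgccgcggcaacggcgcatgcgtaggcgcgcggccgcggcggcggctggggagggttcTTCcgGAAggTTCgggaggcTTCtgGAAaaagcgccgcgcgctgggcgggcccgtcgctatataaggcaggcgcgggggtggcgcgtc
*HSPB8*, *HSPA1A* and *HSPA1B* held the same inward pair, GAAtaTTC, starting 88, 106 and 105 bases before the start. Inward pairs stood in 5.78% of 35116 promoters of this length, outward pairs in 6.62% and the 3 units in 0.441%. *DNAJB1* had 3 RefSeq starts searched and *HSP90AA1* had 2, and only the start shown for each had a match. The shares are per promoter, so they are not those for a gene with several starts. *HSPA8* held the 3 units at 230 and 55 bases before its start and *HSP90AA1* at 88 bases, while *HSPB1* and *DNAJB1* held inward pairs only, at 182 bases and at 77 and 47 bases. *BAG3* (at chr10:119651130-119651379) and *HSPH1* (at chr13:31162389-31162638) had no match in these windows. *HSPA1A* and *HSPA1B* also had the TATA box letters TATAAA (10.7% of promoters) and a pair of CCAAT boxes (CCAAT in 32% of promoters, both strands), and *HSPB8* had neither. Shifted by 1 base, 235 of 249 bases (94.4%) were the same in the *HSPA1A* and *HSPA1B* windows. No *HSPB8* match was found for AGGTCA, a single arm of an estrogen response element (12.1% of promoters), nor for the GATA factor motif (22.3%), searched as AGATAA with either of A and T first and either of A and G last, and *HSPA8* had 1 such match.

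In hg38, *HSPB8* (ENSG00000152137) occupies chr12:119171555-119224855 in GENCODE v44, a span of 53.3 kb that takes in the RefSeq start whose promoter is shown. It had 470 to 1866 reads per library, of a total of 3226718 to 9575803 (median 5042122). Levels below are in CPM, a gene's reads per 1000000 of the library total after TMM scaling. Per kilobase of annotated span the mean level of *HSPA8* was 103 ± 28.4 CPM (SD over 24 libraries), of *HSPB1* 85.6 ± 13.8, of *HSPA1A* 56.6 ± 18.5 and of *HSPA1B* 36.3 ± 6.92, and the 6 longer genes were lower. *HSP90AA1* was at 3.47 ± 0.399 CPM per kb, *HSPB8* at 3.01 ± 0.446, *HSF1* at 2.33 ± 0.204, *BAG3* at 2.13 ± 0.276, *HSPH1* at 1.70 ± 0.404 and *DNAJB1* at 1.52 ± 0.164. Neighbours in that order overlapped within 1 SD of each, except *HSPA1B* above *HSP90AA1* and, by a small margin, *HSPB8* above *HSF1*. The promoters shown for *DNAJB1* and *HSP90AA1* lie inside the annotated spans of 45.6 kb and 59.0 kb. The level per kb of a gene with several starts therefore depends on the span taken, and the order with it.

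T47D is a luminal line, and the luminal markers *ESR1*, *PGR* and *GATA3* ran from 717 to 2227 CPM over the 24 libraries, while *TFF1* was low (0.193 to 6.23 CPM). The basal keratins *KRT5* and *KRT14* were at 0 in 16 and 11 libraries, and their highest level was 1.25 CPM. *TP63*, also a basal marker, was above *TFF1* in median, at 5.99 to 22.1 CPM. Of the mesenchymal, endothelial and immune markers, *COL1A1* was at 6.90 to 15.5 CPM and *CD68* at 6.99 to 20.1 CPM. The others of these (*VIM*, *COL3A1*, *PECAM1* and *PTPRC*) reached at most 7.72 CPM. *TRPS1* itself, whose protein is degraded while the gene stays in place, differed by 0.19 (log2, dTAG-13 minus DMSO, SE 0.083, adjusted p = 0.733, edgeR's quasi-likelihood test, adjusted p = 6.65e-04 with the replicate block). Total counts had medians of 4271054, 4921468, 5467913.5 and 5231689.5 for numbers 1 to 4, with ranges that overlapped. In Clone 39 number 3 had the lowest total under both treatments, 3626852 in DMSO and 3226718 in dTAG-13.

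The question of the dTAG-13 comparison here was whether *HSPB8* was higher alone or with the rest of the heat shock genes. In Clone 28, *HSPB8* was at 171, 163, 140 and 143 CPM in DMSO replicates 1 to 4 and at 203, 191, 181 and 165 CPM after dTAG-13. Clone 35 had 183, 162, 159 and 154 CPM in DMSO and 193, 189, 195 and 164 CPM in dTAG-13. Clone 39 had 135, 121, 137 and 126 CPM in DMSO and 143, 137, 159 and 138 CPM in dTAG-13. The groups of 4 overlapped in all 3 clones, and each dTAG-13 library was above the DMSO library of its own clone and number. The 12 differences ran from 0.083 to 0.37 on the log2 scale, with a mean of 0.20 ± 0.088 (SD, n = 12 pairs), or a 1.15-fold higher level (fitted log2 difference 0.20, SE 0.043). In such bulk libraries fewer cells transcribing a gene and less transcription per cell cannot be told apart. By clone, the difference was 0.26 (SE 0.075) in Clone 28, 0.17 (SE 0.074) in Clone 35 and 0.15 (SE 0.077) in Clone 39.

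**Figure D1:**
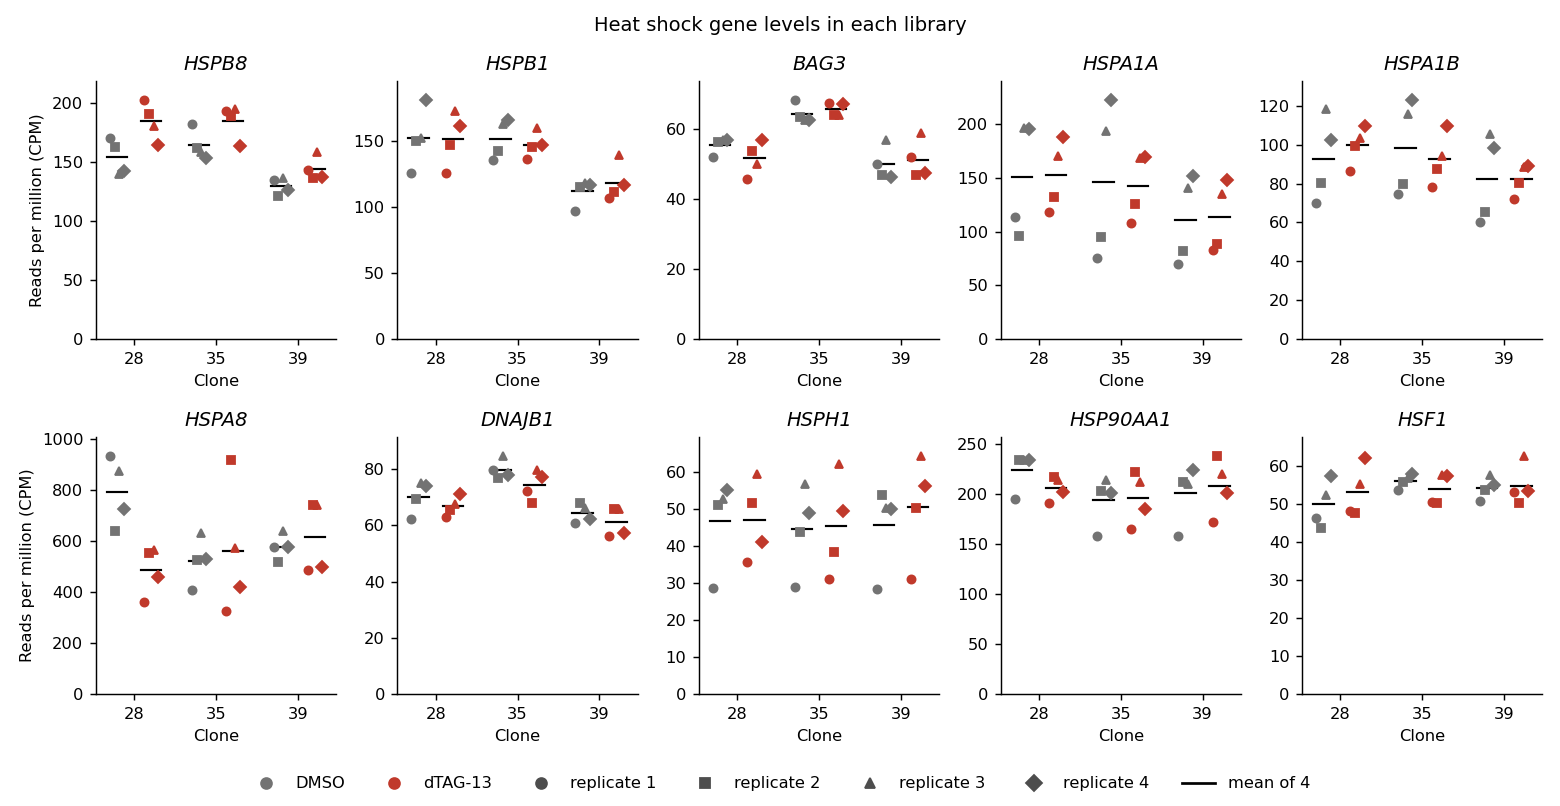
Level of each of the 10 genes in every library, in CPM on a linear axis from 0, by clone, with DMSO in grey, dTAG-13 in red, symbols for the replicate number and a line at the mean of 4. The groups of *HSPB8* overlapped in each clone, and *HSPA1A* and *HSPA1B* spread within a group by replicate number.

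None of the other 9 genes passed the threshold of an adjusted p of 0.1 with dTAG-13 in the 3 clones together, by edgeR or by DESeq2, where 0.551% of the 22326 genes tested did in edgeR. Of all 22326 genes 1411 had an unadjusted p under 0.05 in edgeR, and of the 9 there was 1. That gene was *DNAJB1*, whose difference was −0.08 (SE 0.039, adjusted p = 0.775), lower with dTAG-13 in 11 of 12 pairs, from −0.17 to 0.02. *HSPA1A* and *HSPA1B* had differences of 0.00 (95% interval −0.40 to 0.40) and 0.01 (−0.23 to 0.24), and *HSPB1*, which holds unfolded proteins, had 0.01 (−0.11 to 0.13). *BAG3*, the partner of HSPB8, had −0.01 (−0.10 to 0.08), *HSPH1* 0.06 (−0.26 to 0.38), *HSP90AA1* −0.02 (−0.16 to 0.12), *HSF1* 0.02 (−0.09 to 0.12) and *HSPA8* −0.17 (−0.51 to 0.16). The 95% intervals of *HSPA1A*, *HSPA1B* and *HSPH1*, from the fit without the replicate block, thus reach 0.20, and those of the other 6 end below 0.20. *HSPB8*, picked for its rise in this comparison, had an interval of 0.11 to 0.28. No difference between *HSPB8* and another member was fitted, so these intervals do not separate *HSPB8* from the other 9. With the replicate block none of the 9 passed either, where 2.33% of genes did.

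**Figure D2:**
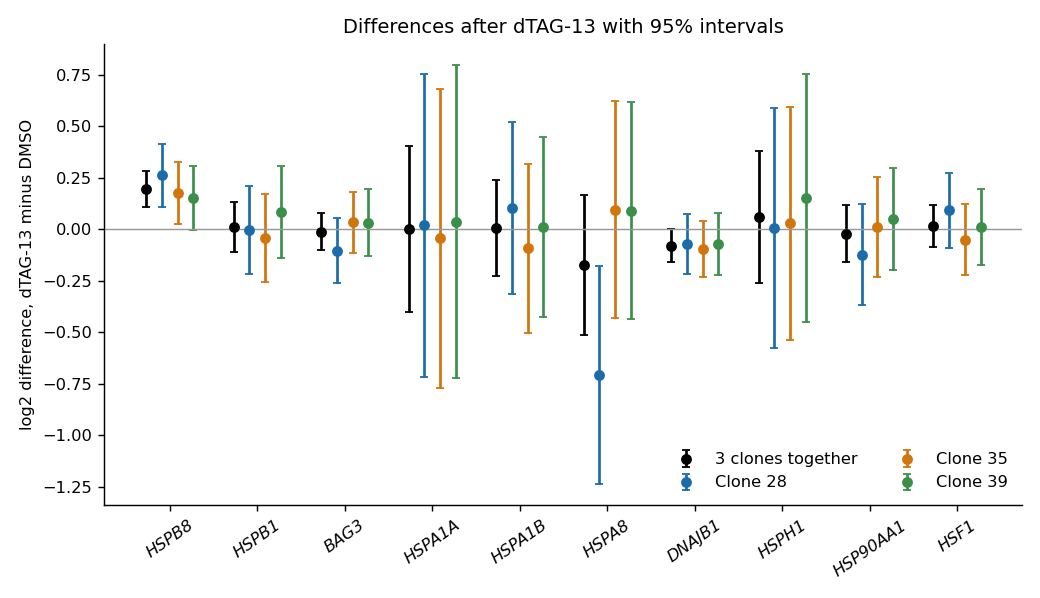
Difference between dTAG-13 and DMSO of each gene on the log2 scale, fitted for the 3 clones together (black) and for each clone, with bars for the 95% interval and a line at 0. The points of *HSPB8* lie between 0.15 and 0.26, and *HSPA8* in Clone 28 lies at −0.71.

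Within the clones, none of the 9 passed by edgeR or DESeq2 in Clone 28 (0.0537% of genes), Clone 35 (0% of genes) or Clone 39 (0% of genes). In these clones 1078, 646 and 754 of all 22326 genes had an unadjusted p under 0.05 in edgeR, and 1, 0 and 0 of the 9. The 1 gene was *HSPA8*, at 935, 639, 875 and 727 CPM in the DMSO replicates of Clone 28 and at 364, 555, 565 and 459 CPM in dTAG-13, without overlap (log2 difference −0.71, SE 0.25, adjusted p = 0.757). How many of all genes had no such overlap was not counted, here or where libraries are said not to overlap below. Clone 35 had 410, 526, 631 and 530 CPM of *HSPA8* in DMSO and 326, 918, 574 and 423 CPM in dTAG-13. Of its reads, 8.91% to 32.9% (median 17.1%) were also counted in *SNORD14C*, *SNORD14D* and *SNORD14E*, snoRNA genes within it, and without them the difference in Clone 28 was −0.57. With the replicate block none of the 9 passed in Clone 28 (1.18% of genes), Clone 35 (0.0941%) or Clone 39 (0.0717%). The response differed between clones for 0 of the 10 genes in edgeR and in DESeq2 (0% of genes), also at an unadjusted p of 0.05 in edgeR (407 of 22326 genes), *HSPB8* included (adjusted p = 1.00), and for none of the 10 with the replicate block (0.00448% of genes).

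Among 79 further chaperone genes, 73 were tested and 1 (1.37%, against 0.551% of all genes) passed with dTAG-13 in the 3 clones together, with a median log2 difference of 0.01 against 0.00 over all genes. It was *HSPA13*, an HSP70-like protein of microsomes, which rose by 0.18 (SE 0.038, adjusted p = 0.0204). With the replicate block *FKBP5*, a cochaperone of HSP90 in steroid receptor complexes, also passed, at −0.09 (adjusted p = 0.0533), which made 2.74% of the listed genes against 2.33% of all genes.

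Pearson correlations of log2 CPM over the 24 libraries, each clone's mean subtracted, describe which genes moved most like *HSPB8*. These points share the treatment, the replicate number and the depth. The closest of all genes tested were *PDZK1* (r = 0.861), a scaffold protein, *RESF1* (r = 0.861), ENSG00000241720 (r = 0.845), *GSTM5* (r = 0.844), a glutathione transferase, and *CCL28* (r = 0.838), a chemokine. Each of those 5 had a higher level with dTAG-13, by 0.14 to 0.32, and a lower one in replicates 3 and 4 than in 1 and 2 of DMSO, by −0.20 to −0.33. The correlation holds the treatment and number differences of *HSPB8*, so these shared directions follow from the ranking and are no separate result. The same differences enter the r of the other members. All 9 other members had r below 0 with *HSPB8*, from −0.55 for *DNAJB1*, below 98.1% of all genes, to −0.05 for *BAG3*, below 55.0% of all genes. The genes on either side of *HSPB8* had differences with dTAG-13 of 0.11 (*SRRM4*, SE 0.13) and 0.11 (*CCDC60*, SE 0.14), and the antisense lncRNA ENSG00000256884 inside it 0.21 (SE 0.13, adjusted p = 0.910).

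The clones were compared in DMSO to see whether the basal level of these genes was the same in the 3 lines. 4 of the 10 passed the threshold, *HSPB8*, *HSPB1*, *BAG3* and *DNAJB1*, where 28.5% of genes did, and in each the mean of Clone 39 was the lowest. *HSPB8* was at 154 ± 15.3 CPM in Clone 28, 164 ± 12.6 in Clone 35 and 130 ± 7.51 in Clone 39 (SD, n = 4). Its difference was −0.25 (SE 0.077, adjusted p = 0.0175) for Clone 39 minus 28 and −0.34 (SE 0.076, adjusted p = 0.00105) for Clone 39 minus 35. For Clone 35 minus 28 it was 0.09 (SE 0.075, adjusted p = 0.669). Every DMSO library of Clone 39 lay below every DMSO library of the other clones, and the share of all genes that separated in this way was not counted.

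*HSPB1*, the other small HSP, had 126, 150, 152 and 181 CPM in Clone 28, 135, 142, 163 and 166 in Clone 35 and 97.4, 115, 118 and 117 in Clone 39, each in DMSO. Clone 39 lay below all libraries of the other clones, with differences of −0.45 (SE 0.11, adjusted p = 0.00260) from Clone 28 and −0.44 (SE 0.11, adjusted p = 0.00304) from Clone 35. *BAG3* had 52.0, 56.4, 56.8 and 56.8 CPM in Clone 28, 68.2, 63.4, 62.5 and 62.6 in Clone 35 and 49.9, 46.8, 56.7 and 46.3 in Clone 39. The difference of Clone 39 from Clone 35 passed, at −0.36 (SE 0.077, adjusted p = 5.76e-04). With the replicate block *BAG3* also passed for Clone 35 minus 28 (0.20, adjusted p = 0.0479) and for Clone 39 minus 28 (−0.16, adjusted p = 0.0967). *DNAJB1* passed between Clones 39 and 35, at 79.6 ± 3.55 CPM in Clone 35 and 64.3 ± 3.25 in Clone 39 (−0.31, SE 0.070, adjusted p = 0.00112), and with the replicate block also for Clone 35 minus 28 (0.18, adjusted p = 0.0357).

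By pair of clones, 0 of 10 passed between Clones 35 and 28 in edgeR and in DESeq2 (5.25% of genes, and 3 of the 10 and 3109 of 22326 genes with an unadjusted p under 0.05), 2 of 10 between 39 and 28 (26.7%, and 14.3% lower in Clone 39) and 4 of 10 between 39 and 35 (22.6%, and 12.9% lower in Clone 39). All of these were lower in Clone 39. The same 4 genes passed between the dTAG-13 groups (27.5% of genes), where *BAG3* was also higher in Clone 35 than in Clone 28 (0.34, SE 0.075, adjusted p = 0.00404), 1 of 10 where 5.57% of genes passed and 2.58% were higher. In dTAG-13 *HSPB8* was lower in Clone 39 than in Clone 28 (−0.36, 26.4% of genes passed) and Clone 35 (−0.36, 21.5%). With a shared term for the replicate number, 7 of 10 passed (39.7% of genes), the added ones being *HSPA1A*, *HSPA8* and *HSP90AA1*, and by pair 3 (11.9% of genes), 5 (35.2%) and 6 (30.5%). These are differences between 3 lines of 1 clone each.

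Among the 73 listed chaperone genes tested, 20 differed between clones in DMSO (27.4%, against 28.5% of all genes). The 3 with the largest difference for Clone 39 minus 28 were *UBB*, a polyubiquitin gene (−0.99), *HSPA13* (−0.59) and *SYNPO*, an autophagy partner of BAG3 (0.59). *CRYAB*, a small HSP, was higher in Clone 35 than in Clones 28 (0.89) and 39 (−0.78 for 39 minus 35). *DNAJA4* (0.56) and *WIPI1* (−0.43) were the next largest for Clone 35 minus 28, and *UBB* (−1.04) and *HSPA13* (−0.45) for Clone 39 minus 35.

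Replicate numbers separated some of the heat shock genes, the HSP70 pair among them, and not others. *DNAJB1* and *BAG3* did not pass between the 4 numbers in DMSO (adjusted p = 0.388 and 0.837) or in dTAG-13 (adjusted p = 0.395 and 0.938). Their differences of numbers 3 and 4 minus 1 and 2 in DMSO were 0.08 (SE 0.050) and 0.01 (SE 0.056). *HSPA1A* had 113, 95.9, 197 and 195 CPM in DMSO replicates 1 to 4 of Clone 28, 75.6, 94.6, 194 and 222 in Clone 35 and 69.4, 82.4, 141 and 152 in Clone 39. With dTAG-13 it had 118, 133, 170 and 188 CPM in Clone 28, 108, 125, 168 and 169 in Clone 35 and 83.2, 88.3, 135 and 148 in Clone 39. Numbers 3 and 4 lay above numbers 1 and 2 without overlap in all 3 clones and under both treatments. The share of all genes that separated by number in this way was not counted, for this gene or for those below. The difference of numbers 3 and 4 minus 1 and 2 was 1.05 (SE 0.099, adjusted p = 2.94e-04) in DMSO and 0.59 (SE 0.041, adjusted p = 1.74e-15) in the dTAG-13 cultures. Both treatments of a round were harvested together, so the dTAG-13 result is not independent of the DMSO result.

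*HSPA1B* is the near-identical second copy. It had 70.1, 80.0, 119 and 103 CPM in the DMSO replicates of Clone 28, 74.6, 79.5, 116 and 123 in Clone 35 and 60.1, 65.1, 105 and 98.1 in Clone 39. In dTAG-13 the values were 86.5, 99.3, 103 and 110 CPM in Clone 28, 78.4, 87.5, 94.1 and 110 in Clone 35 and 72.2, 80.3, 88.4 and 89.3 in Clone 39, again with 3 and 4 above 1 and 2 in each clone. The difference was 0.63 (SE 0.046, adjusted p = 1.18e-17) in DMSO and 0.24 (SE 0.041, adjusted p = 2.60e-05) in dTAG-13. How the authors' counting placed reads that fit both copies is not given in the sources used here, and the sum of both copies had a DMSO difference of 0.88 (adjusted p = 6.08e-16). *HSPA1B* also shares 56.5% of its span with the lncRNA ENSG00000285565 on the same strand, whose DMSO difference was 0.07 (SE 0.037, adjusted p = 0.130).

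*HSPH1* was low in number 1 and not in the other 3 numbers. In DMSO it had 28.6, 51.1, 52.7 and 55.0 CPM in Clone 28, 29.1, 43.8, 56.6 and 48.9 in Clone 35 and 28.5, 53.8, 50.1 and 49.9 in Clone 39. With dTAG-13 it had 35.6, 51.6, 59.3 and 41.1 CPM in Clone 28, 31.1, 38.5, 62.0 and 49.5 in Clone 35 and 31.1, 50.2, 64.3 and 56.2 in Clone 39, so number 1 was the lowest in all 6 groups. The 4 numbers differed in DMSO (adjusted p = 1.34e-11) and in dTAG-13 (adjusted p = 1.48e-06), and with number 1 left out, chosen after seeing the data, they did not pass in DMSO (adjusted p = 0.599). *HSP90AA1* had the same shape, with number 1 the lowest in all 6 groups (195, 158 and 157 CPM in DMSO against 200 to 234 for the other numbers), and an adjusted p of 6.70e-09 in DMSO that was 0.965 with number 1 left out.

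*HSPB1* had number 1 lowest in all 6 groups too, and 3 and 4 above 1 and 2 without overlap in each clone and treatment, by 0.22 (SE 0.040, adjusted p = 1.08e-05) in DMSO and 0.21 (SE 0.040, adjusted p = 1.09e-04) in dTAG-13. *HSF1* itself was higher in numbers 3 and 4, by 0.15 (SE 0.057, adjusted p = 0.0472) in DMSO and 0.21 (SE 0.054, adjusted p = 0.00479) in dTAG-13. In DMSO it ran from 43.8 to 55.8 CPM in numbers 1 and 2 and from 52.5 to 58.1 CPM in numbers 3 and 4, and within each clone these did not overlap. The DMSO difference of *HSF1* did not pass without Clone 28 replicate 2 (0.11) or 4 (0.11), without Clone 28 (0.08, adjusted p = 0.402) or with DESeq2 (0.14, adjusted p = 0.260).

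*HSPB8* went the other way. Its difference of numbers 3 and 4 minus 1 and 2 was −0.12 (SE 0.039, adjusted p = 0.0141) in DMSO, the only one below 0 among the 10 genes there, and −0.08 (SE 0.039, adjusted p = 0.179) in dTAG-13. In DMSO the mean over the 3 clones was 163 CPM in number 1 (135 to 183), 149 in number 2 (121 to 163), 145 in number 3 (137 to 159) and 141 in number 4 (126 to 154). The DMSO difference of *HSPB8* did not pass without Clone 28 replicate 2 (−0.09) or 3 (−0.09), without Clone 28 (−0.06) or Clone 35 (−0.11), with library totals (−0.07), with no filter (−0.09) or with DESeq2 (−0.13, adjusted p = 0.124). *HSPA1A*, *HSPA1B*, *HSPB1* and *HSPH1* passed and were higher in every alternative run for that contrast. Leaving a number out was not run for it. *HSPH1* had DMSO means of 28.7, 49.6, 53.2 and 51.3 CPM in numbers 1 to 4, and *HSP90AA1* had 170, 216, 219 and 219. Their differences in this contrast thus hold the low number 1 described above. Of the members with an element in the promoters shown above, *HSPA1A*, *HSPA1B*, *HSPB1* and *HSP90AA1* were higher in numbers 3 and 4 of DMSO. *HSPB8* was lower by a difference that the alternatives listed for it did not keep, and *HSPA8* (0.16, adjusted p = 0.376) and *DNAJB1* (0.08, adjusted p = 0.255) did not pass. Without the snoRNA reads, an alternative chosen after seeing the data, *HSPA8* passed and was higher too (0.34, adjusted p = 0.0441). Of the members with no match, *HSPH1* was higher and *BAG3* did not pass.

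**Figure D3:**
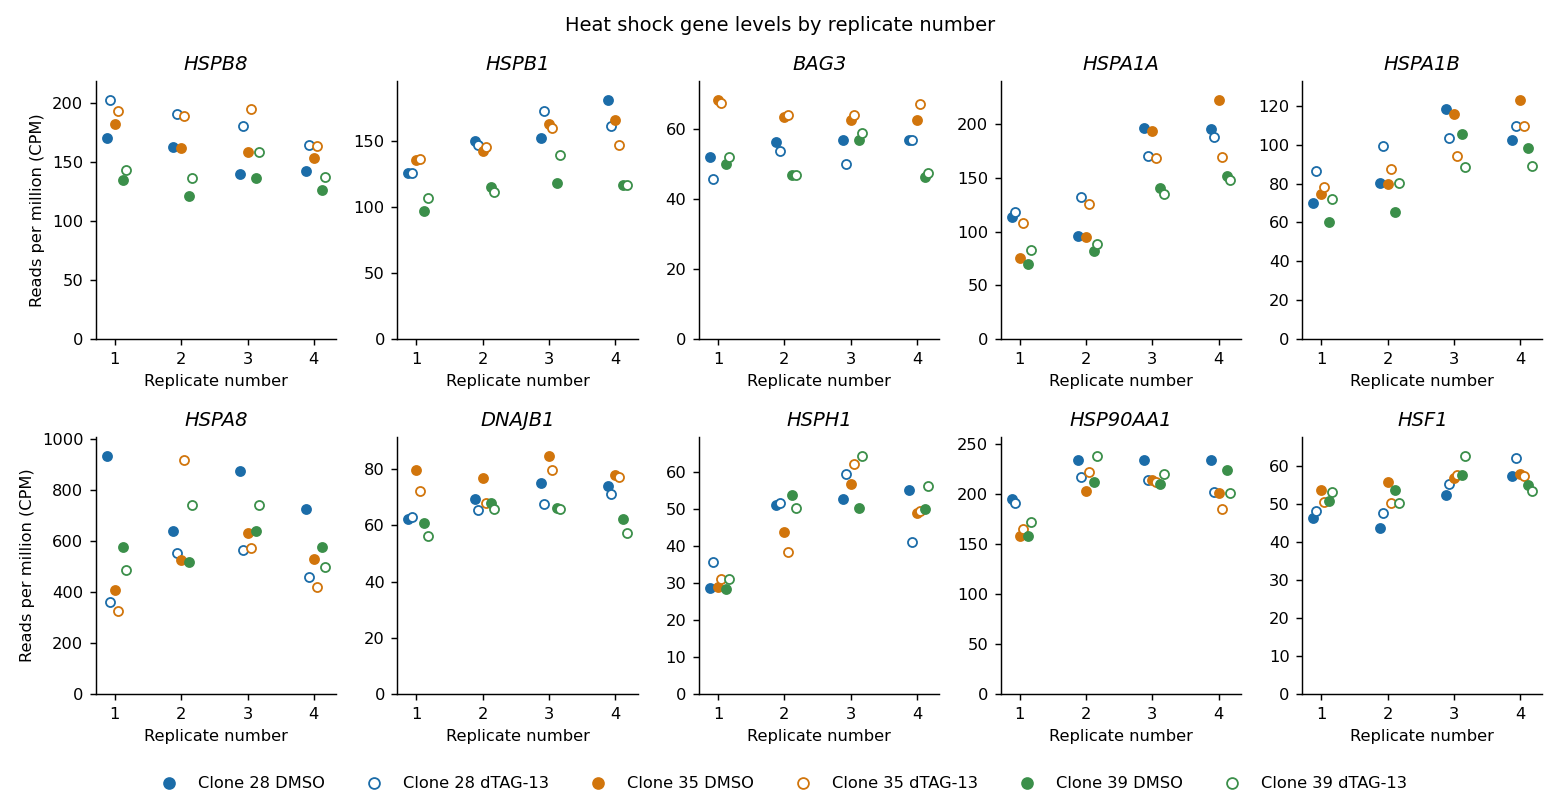
Level of each gene in CPM on a linear axis from 0 against the replicate number, with filled points for DMSO, open points for dTAG-13 and a colour for each clone. *HSPA1A* and *HSPA1B* are higher in numbers 3 and 4, *HSPH1* and *HSP90AA1* are lowest in number 1, and *HSPB8* shows neither pattern.

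In all, the replicate numbers differed in DMSO for 6 of the 10 genes, *HSPB8*, *HSPB1*, *HSPA1A*, *HSPA1B*, *HSPH1* and *HSP90AA1*, where 30.3% of 21254 genes did. In dTAG-13 they differed for 8 of 10, with *HSPA8* and *HSF1* added, where 20.1% of 21529 genes did. For numbers 3 and 4 minus 1 and 2, 7 of 10 passed in DMSO (6 higher and 1 lower), where 35.5% of genes passed, 17.6% higher and 18% lower. In dTAG-13 5 of 10 passed, all higher, where 23.6% of genes passed and 12.3% were higher. The replicate number accounted for 85.6% of the variance of log2 CPM of *HSPH1*, 74.3% for *HSPA1A*, 68.5% for *HSP90AA1*, 66.2% for *HSPA1B* and 54.0% for *HSF1*, against a median of 17.1% over all genes. It accounted for 13.6% for *DNAJB1*, 11.5% for *HSPB8* and 2.88% for *BAG3*. Clone accounted for 71.4% for *BAG3*, 62.6% for *DNAJB1*, 61.7% for *HSPB1* and 54.5% for *HSPB8* (median gene 21.3%). The total counts by number are given above, and their part in these differences was not tested. The time of collection and the replicate number cannot be told apart.

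**Figure D4:**
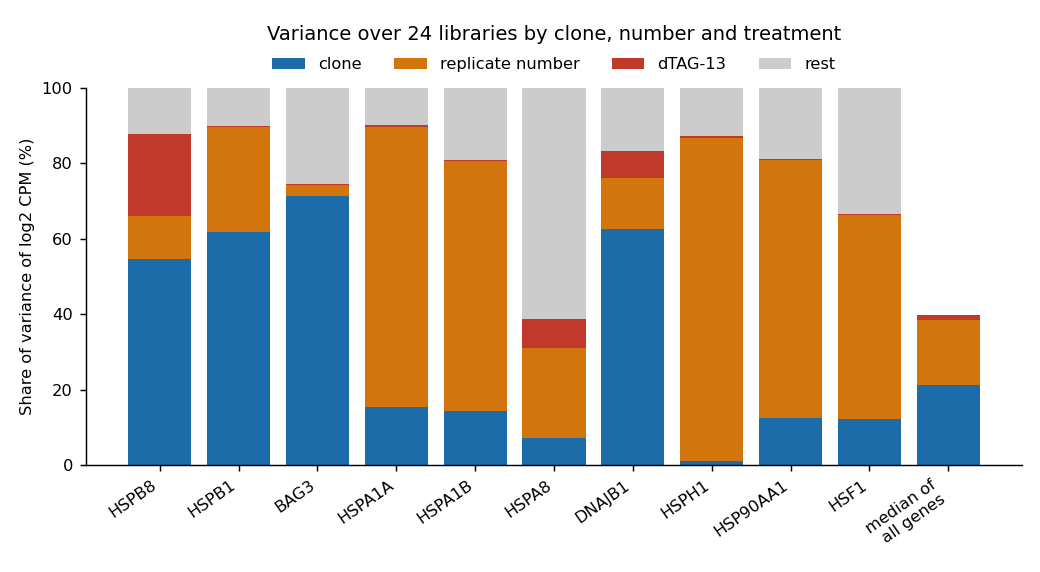
Share of the variance of log2 CPM over the 24 libraries that clone, replicate number and dTAG-13 accounted for, in percent, stacked for each gene, with the rest in grey, and the medians over all genes tested at the right, where no rest is drawn. The dTAG-13 share of *HSPB8* is 21.7%, and the number share of *HSPH1* is 85.6%.

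The wider chaperone lists moved with the replicate number in part. Of 73 listed genes tested, 35 passed for numbers 3 and 4 minus 1 and 2 in DMSO (47.9%), 27 higher and 8 lower, with a median of 0.05, where 35.5% of all genes passed. In dTAG-13 28 passed (38.4%), 22 higher and 6 lower, with a median of 0.06, where 23.6% of all genes passed. The median over all genes was 0.00 in each. The sublists below are to be read against those shares, and those of TRiC, exchange factors, heat shock factors and autophagy partners did not exceed the share of all genes in DMSO. Of the HSP90 and HSP70 cochaperones 7 of 12 passed, all higher, in each treatment. Of the other HSP70, HSP40 and HSP90 genes, a list that also holds the microsomal *HSPA13*, 7 of 13 were higher in DMSO. In dTAG-13 6 of them were higher and 1 lower. In DMSO the chaperones of the endoplasmic reticulum and mitochondria gave 4 higher and 5 lower of 13, the TRiC chaperonin subunits 2 higher of 8, BAG and exchange factors 1 higher and 2 lower of 10, the heat shock factor group 1 higher of 4, the autophagy partners of HSPB8 and BAG3 2 higher and 1 lower of 9, polyubiquitin genes 2 higher of 2 and other small HSP genes 1 higher of 2. With dTAG-13 the endoplasmic reticulum and mitochondrial chaperones gave 3 higher and 3 lower, TRiC 3 higher (37.5%) and BAG and exchange factors 2 higher. The heat shock factor group gave 1 higher and the autophagy partners 2 lower, and 0 polyubiquitin and 0 other small HSP genes passed. The 3 with the largest difference in DMSO were *HSPA2*, an HSP70 of testis and other tissues (0.68, adjusted p = 4.69e-08), *HSPB6*, a small HSP (0.58, adjusted p = 0.00156), and *FKBP4*, the HSP90 cochaperone FKBP52 (0.53, adjusted p = 2.96e-18). In dTAG-13 they were *FKBP4* (0.52, adjusted p = 1.20e-14), *SYNPO2*, an actin-binding partner of BAG3 (−0.39), and *DNAJB5*, an HSP40 (0.38). *HSPA2* and *HSPB6* did not pass in dTAG-13.

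Whether the response to dTAG-13 itself depended on the replicate number was tested within the 12 pairs. In numbers 1 and 2 the dTAG-13 library exceeded its DMSO partner for *HSPA1A* in 6 of 6 pairs, with means of 0.28 and 0.32 on the log2 scale, and in 0 of 6 pairs of numbers 3 and 4, with means of −0.16 and −0.16. For *HSPA1B* dTAG-13 exceeded DMSO in 6 of 6 pairs of numbers 1 and 2, with means of 0.21 and 0.25, and in 1 of 6 pairs of 3 and 4, with means of −0.25 and −0.07. The response differed between numbers for *HSPA1A* (adjusted p = 0.0569) and *HSPA1B* (adjusted p = 1.15e-04) by edgeR, where 2.09% of genes passed. With DESeq2 neither passed (adjusted p = 0.372 and 0.113), and the sum of both copies had an adjusted p of 1.07e-07 in edgeR.

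For *HSPB8* dTAG-13 exceeded DMSO in 6 of 6 pairs of numbers 1 and 2 and in 6 of 6 of 3 and 4, with means of 0.14, 0.21, 0.29 and 0.14 for numbers 1 to 4. Its response did not pass for a difference between numbers (adjusted p = 0.542), and the response in numbers 3 and 4 minus that in 1 and 2 was 0.04 (SE 0.051). That contrast was −0.47 (SE 0.087) for *HSPA1A*, −0.39 (SE 0.063) for *HSPA1B* and −0.15 (SE 0.049, adjusted p = 0.0726) for *HSP90AA1*, which was higher in 4 of 6 pairs of numbers 1 and 2 and in 1 of 6 of numbers 3 and 4. *DNAJB1* was lower in 5 of 6 and 6 of 6 pairs. Of the 73 listed chaperone genes, *HSPA1L* (adjusted p = 0.0724) and *HSPA2* (adjusted p = 0.0101) had a response that differed between numbers (2.74%, against 2.09% of all genes).

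**Figure D5:**
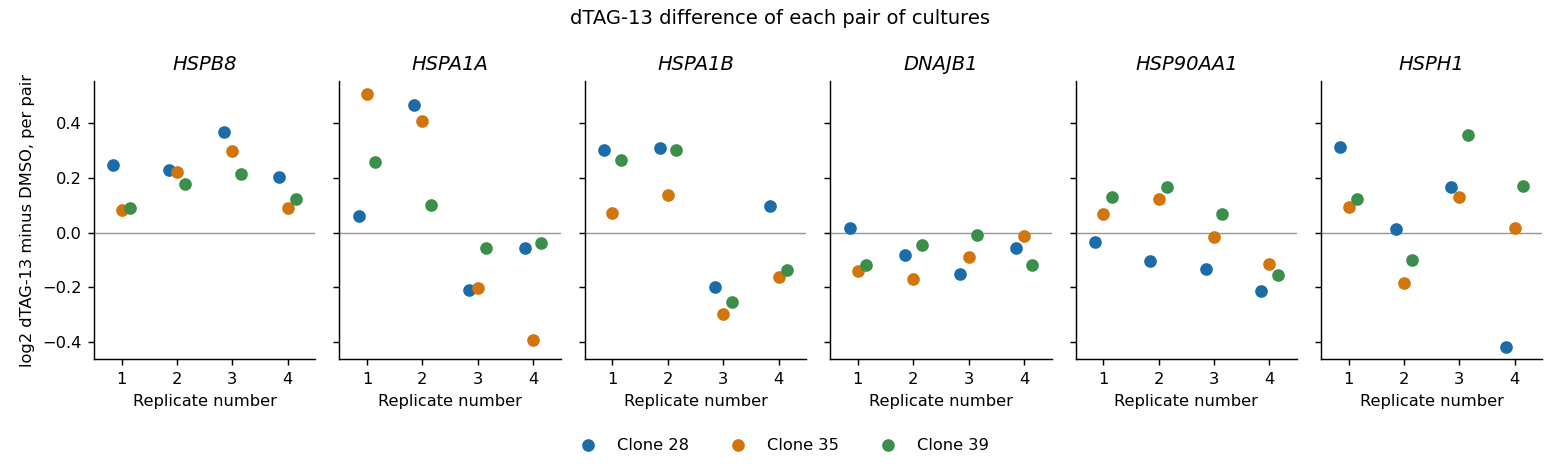
Difference between dTAG-13 and DMSO in each pair of cultures with the same clone and number, on the log2 scale, against the replicate number for 6 genes, with a colour for each clone and a line at 0. All 12 points of *HSPB8* lie above 0, and those of *HSPA1A* lie above 0 in numbers 1 and 2 and below it in numbers 3 and 4.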

How the data were processed

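Members and gene lists, and the split of replicates 1 and 2 against 3 and 4, were chosen with earlier results of these data known. The values the authors deposited are counts of PRO-seq reads per gene, not normalized. Per the methods, adapters were removed, reads deduplicated by UMI and ribosomal reads removed, and the submitters' processing notes name cutadapt 1.8.1, Bowtie2 2.4.4, SAMtools 1.9 and hg38. The annotation, strand and treatment of reads that fit several places are not given in the sources used here. Genes inside a host gene on its strand had a median read density of 0.859 of the host's (1032 genes), and 0.0398 on the other strand (1868 genes). Names came from GENCODE v44 for 60463 of 60605 identifiers, and promoters from RefSeq.

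Counts were fitted with edgeR 4.0.16 in R 4.3.3 (quasi-likelihood, TMM, filterByExpr with a minimum count of 10, adjusted p-values by Benjamini-Hochberg over all genes tested, threshold 0.1). Models had clone and treatment, the 6 groups (between clones), clone and number in the 12 libraries of 1 treatment, or 12 pair terms, treatment and treatment by number. Genes named are the 10 members, at most 3 listed genes per comparison, the 5 most like *HSPB8*, genes next to it and *TRPS1*. The replicate numbers pair DMSO with dTAG-13 libraries because treatments were collected together. The deviations of the 12 pairs correlated at 0.0926 to 0.318 (mean 0.185, 11 over 0.1), and those of libraries of the same number and treatment in different clones at 0.0936 to 0.352 (mean 0.225, 23 of 24 over 0.1). The precision is set by the spread between replicates, whose chi-square per degree of freedom was 1.66 to 13.8 over 36 pairs. Whether replicates were separate thaws or passages is not stated, so p-values measure the spread between these cultures. Scripts were tested on simulated data. Alternatives tried were other size factors, library totals, no filter, DESeq2 1.42.0, a replicate block, a threshold of 0.05, summed HSP70 copies and each library or clone left out, and, chosen after seeing the data, *HSPA8* without snoRNA reads and each number left out.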

Additional observations from a re-analysis of the deposited data

Results flagged for a closer look

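In 60 groups of 4 libraries, 6 had a highest or lowest library far from the other 3, where chance gives about 3. All 6 were DMSO replicate 1. *HSPH1* was at 28.6 CPM in Clone 28 (the others 51.1 to 55.0) and at 28.5 CPM in Clone 39 (49.9 to 53.8). *HSP90AA1* was at 195 CPM in Clone 28 (233 to 234). *HSPB1* was at 97.4 CPM in Clone 39 (115 to 118). *BAG3* was at 52.0 CPM in Clone 28 (56.4 to 56.8) and, on the high side, at 68.2 CPM in Clone 35 (62.5 to 63.4). The response to dTAG-13 differed between replicate numbers for *HSPA1A* (adjusted p = 0.0569) and *HSPA1B* (adjusted p = 1.15e-04, edgeR's quasi-likelihood test of the interaction).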

How the results depend on the processing

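Over 3266 comparisons of a member's value with that under an alternative, 3199 were kept, 41 lost and 26 gained a call, and no called difference changed sign. Kept meant the same side of the threshold. For the *HSPB8* difference with dTAG-13, which had no test, it meant the same sign and a change below the SD of its pair differences. The *HSPB8* difference with dTAG-13 was between 0.16 and 0.22 in all alternatives, and 0 of the other 9 genes passed in any, also without any 1 library. With the replicate block 7 members differed between clones in DMSO, and by pair 3, 5 and 6, where without it 4, 0, 2 and 4 did, and in the dTAG-13 groups 1 differed between Clones 35 and 28. For the response by replicate number, 2 members passed with the block and 1 in the fit with no replicate block, where *HSPA1A* had an adjusted p of 0.108. Beside these the block changed no call of a member. A threshold of 0.05 left 1, DESeq2 left 0, the summed copies gave 1, and leaving out 1 library gave 1 to 2.

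*HSPA1A* lost its call there in 14 of 24 fits without a library (Clone 28 pairs 2, 3 and 4, Clone 35 pairs 2 and 3, and Clone 39 pairs 1 and 3, adjusted p 0.101 to 0.263), and *HSPA1B* in 0 of 24 (3.94e-05 to 0.00446). *HSP90AA1* passed without either library of Clone 28 pair 2. Leaving out 1 library gave 5 to 6 members that differed between numbers in DMSO and 5 to 8 for numbers 3 and 4 minus 1 and 2, 4 between the clones, 0 between Clones 35 and 28, 2 to 3 between 39 and 28 and 4 between 39 and 35. *HSPB8* lost its call between the 4 numbers without replicate 1 of Clone 28 or Clone 35 (adjusted p = 0.111 and 0.139), with library totals (0.165), with no filter (0.224) and with DESeq2 (0.294). It also lost the call without Clone 28 (0.120), without Clone 35 (0.285) and with number 1 left out in all clones (0.557). *HSPA8* gained a call without Clone 35 replicate 1 (0.00982), without Clone 35 (0.0807) and with number 1 left out in all clones (2.27e-08). *HSPA8* without snoRNA reads was 0.34 higher in numbers 3 and 4 (adjusted p = 0.0441). DESeq2 called 2365 genes between numbers in DMSO against 6448, 3848 against 7553 for 3 and 4 minus 1 and 2, and 43 against 467 for the response by number. The block called 521 genes with dTAG-13 against 123, no filter called 197 and a threshold of 0.05 called 64. In Clone 28 alone the range over these settings was 4 to 263 genes against 12. Between Clones 35 and 28 the block called 2664 against 1173. Between Clones 39 and 28 *DNAJB1* passed without Clone 28 replicate 1 (−0.18) and *BAG3* without Clone 39 replicate 3 (−0.22). The cause of these changes was not tested.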
